A study of Homo sapiens with 5 samples.

Results

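The LINC genes are long intergenic non-protein-coding RNA genes that carry a systematic name, LINC followed by a number, because no function was known when they were named. They were taken here as the entries of the authors' RefSeq table that have an accession of the non-coding class (NR_) and a symbol of LINC plus digits in the RefSeq gene table. The rule used no measured value. It found 737 entries, 1 per locus, among 20220 entries in all, of which 16862 are messenger RNA (NM_) entries. 736 of the 737 are annotated as long non-coding RNA.

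The libraries came from HEK 293T, a line of human embryonic kidney origin in which the large T antigen of the SV40 virus is expressed. The treated cells had 1 µM of 5-aza-2'-deoxycytidine (5-aza-CdR) for 3 days (2 libraries), the recovery cells were kept without the drug for 30 further days after that treatment (1 library), and the control cells had no drug (2 libraries). Total RNA was depleted of ribosomal RNA and made into libraries that keep the strand. Cultures were grown in triplicate, but the labels do not tie a library to a culture, so the q-values given here may measure technical spread only. The authors' tables give 1 value per group, in FPKM, fragments per kilobase of transcript scaled to the fragments of the library, with the libraries of a group already combined. No SD, n or test of a single library can therefore be given, and the recovery value is 1 library.

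Long intergenic RNAs are transcribed by RNA polymerase II from their own promoters, usually spliced, and mostly present at low levels in few cell types. A small number have known roles, in the nucleus as regulators of transcription or in the cytoplasm as partners of proteins and microRNAs. DNA methylation at CG dinucleotides is placed by DNA methyltransferases, and methylation of a CG-rich promoter goes with silencing of its gene. 5-aza-CdR is built into DNA during replication and traps the methyltransferases there, and newly made DNA strands then lack methylation.

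Because the drug acts on methylated CG, 6 LINC promoters are shown that range from CG-dense to CG-poor. They belong to LINC00899, LINC00882, LINC00526 and LINC00632, which had more RNA in treated than in control cells, and to LINC01556 and LINC01508, which the authors called lower in one comparison each. Each runs 5′ to 3′ on the strand of the gene, from 250 bases before to 50 bases after the start (RefSeq, GRCh38.p14), with every CG in capitals. They lie at chr22:46044819-46045118 (LINC00899, minus strand), chr3:107240589-107240888 (LINC00882, minus), chr18:5237980-5238279 (LINC00526, minus), chrX:140709509-140709808 (LINC00632, plus), chr6:28943534-28943833 (LINC01556, plus) and chr9:90433440-90433739 (LINC01508, minus).
LINC00899: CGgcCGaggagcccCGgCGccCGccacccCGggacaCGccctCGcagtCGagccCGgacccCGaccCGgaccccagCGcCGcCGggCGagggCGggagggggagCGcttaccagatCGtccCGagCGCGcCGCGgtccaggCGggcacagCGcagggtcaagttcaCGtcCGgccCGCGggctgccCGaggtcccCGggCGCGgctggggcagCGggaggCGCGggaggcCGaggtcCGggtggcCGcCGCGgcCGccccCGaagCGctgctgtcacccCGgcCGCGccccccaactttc
LINC00882: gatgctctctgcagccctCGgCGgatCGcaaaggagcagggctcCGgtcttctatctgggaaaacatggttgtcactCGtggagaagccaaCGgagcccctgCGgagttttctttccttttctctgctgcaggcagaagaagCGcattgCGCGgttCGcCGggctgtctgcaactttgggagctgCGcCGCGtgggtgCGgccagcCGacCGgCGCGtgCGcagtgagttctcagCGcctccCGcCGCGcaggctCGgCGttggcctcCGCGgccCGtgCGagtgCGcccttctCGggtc
LINC00526: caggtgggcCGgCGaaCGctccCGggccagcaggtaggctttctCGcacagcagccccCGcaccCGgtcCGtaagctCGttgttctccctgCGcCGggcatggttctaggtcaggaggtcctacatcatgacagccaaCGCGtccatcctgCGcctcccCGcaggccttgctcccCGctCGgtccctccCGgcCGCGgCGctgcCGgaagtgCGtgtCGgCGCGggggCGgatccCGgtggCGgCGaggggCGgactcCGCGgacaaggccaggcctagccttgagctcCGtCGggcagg
LINC00632: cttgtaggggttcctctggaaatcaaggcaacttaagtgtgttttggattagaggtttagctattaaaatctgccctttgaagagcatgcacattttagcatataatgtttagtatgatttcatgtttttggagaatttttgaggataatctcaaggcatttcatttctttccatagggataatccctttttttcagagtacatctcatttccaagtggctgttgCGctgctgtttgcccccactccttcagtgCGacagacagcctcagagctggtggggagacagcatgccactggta
LINC01556: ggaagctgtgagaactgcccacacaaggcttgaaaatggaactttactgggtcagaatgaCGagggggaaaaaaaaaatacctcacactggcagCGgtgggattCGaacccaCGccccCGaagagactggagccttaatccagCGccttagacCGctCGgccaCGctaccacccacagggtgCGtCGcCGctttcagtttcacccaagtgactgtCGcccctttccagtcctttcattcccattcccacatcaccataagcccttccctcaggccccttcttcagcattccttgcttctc
LINC01508: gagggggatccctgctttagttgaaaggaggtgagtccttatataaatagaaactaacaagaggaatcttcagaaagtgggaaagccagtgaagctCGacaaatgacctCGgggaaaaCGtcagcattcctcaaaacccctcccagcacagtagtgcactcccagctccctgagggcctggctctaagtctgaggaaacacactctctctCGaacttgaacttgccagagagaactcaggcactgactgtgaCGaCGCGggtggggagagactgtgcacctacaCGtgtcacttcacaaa
The window of LINC00899 holds 48 CG and that of LINC00632 holds 2. LINC00526 has 35 CG, LINC00882 33, LINC01556 13 and LINC01508 8. The window of LINC00526 shares 170 bases with that of LINC00667, a LINC gene on the opposite strand, and the 2 entries lie 70 bp apart in the table.

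Most LINC entries were listed at 0 in every group, and the share with a value above 0 was highest in treated cells. Above 0 FPKM were 211 LINC entries in treated cells (28.6%), 150 in recovery cells (20.4%) and 108 in control cells (14.7%). Over all entries of the table the shares were 73.4% in treated, 67.6% in recovery and 62.6% in control cells. At the higher threshold of 1 FPKM the counts were 86 in treated, 86 in recovery and 61 in control cells, which is 11.7%, 11.7% and 8.28% of the LINC entries. With quantile scaling of the groups the counts were closer, at 74 in treated, 81 in recovery and 71 in control cells. The same shares over all entries were 58.5% in treated, 57.4% in recovery and 54.5% in control cells. Listed at 0 in all 3 groups were 485 LINC entries (65.8%), against 23.3% of all entries.

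The depth of the groups, as estimated from low values, also differed, being greatest in the treated group and smallest in the recovery group. The tables hold no counts, but low values step in whole fragments, which gives the worth of 1 fragment in one group relative to another. In FPKM, 1 fragment was worth 0.757 times as much in the treated as in the control group and 1.53 times as much in the recovery as in the control group. On this estimate the treated group held 1.32 times and the recovery group 0.652 times the fragments of the control group. It rests on the commonest ratio to control, found in 98 of 12366 entries for treated and 109 of 12095 for recovery cells. It also takes 1 worth per group, though control and treated cells combine 2 libraries each. The absolute depth is unknown, and the part of depth in the shares was not tested.

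Other RNA classes of the same table had larger shares in the same order of groups. Of 572 antisense, divergent, intronic and overlapping RNA entries, 63.6% were above 0 in treated, 53.1% in recovery and 44.6% in control cells. Of 459 other long non-coding RNA entries these shares were 40.7% in treated, 33.8% in recovery and 28.8% in control cells. Of the messenger RNA entries 80.4% were above 0 in treated, 74.9% in recovery and 69.8% in control cells.

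**Figure D1:**
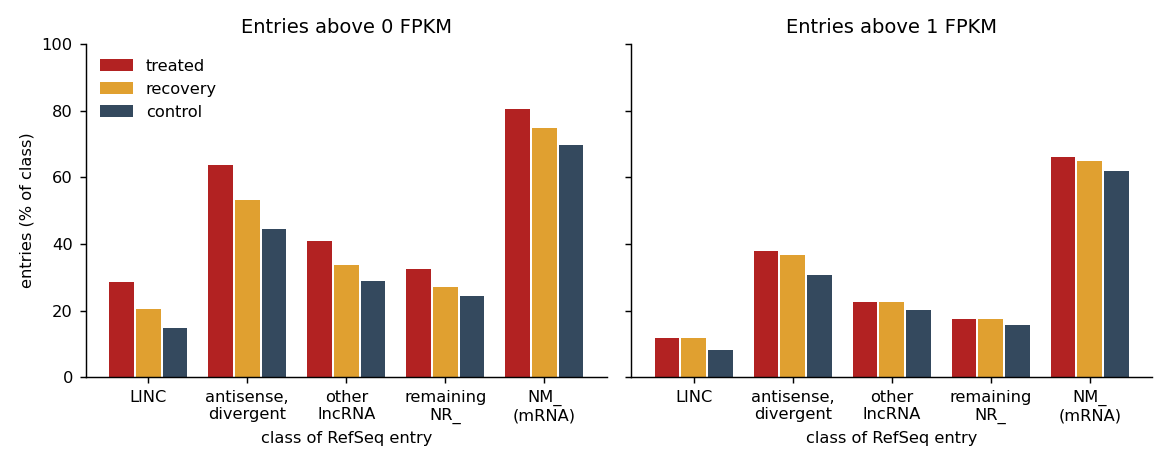
Share of the entries of each RNA class (y axis, % of class) above 0 FPKM (left) and above 1 FPKM (right) in treated, recovery and control cells; each bar is 1 value per group, with no replicate error. For LINC entries the bars above 0 FPKM are 28.6%, 20.4% and 14.7%, the lowest of the 5 classes in each group.

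Of the LINC entries above 0 somewhere, 80 were above 0 in all groups, 41 in treated and recovery cells but not in control cells, and 82 in treated cells alone. The last pattern made up 11.1% of LINC entries and 6.32% of all entries, and the one before it 5.56% of LINC entries and 5.93% of all entries. Most of the 82 were at very low levels, with a median of 0.364 FPKM and a highest value of 5.23 FPKM. Only 12 of them were above 1 FPKM. The opposite pattern, above 0 in control cells alone, held 12 LINC entries, of which 3 were above 1 FPKM. In recovery cells alone 21 entries were above 0.

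Above 1 FPKM in all 3 groups were 41 LINC entries, and in at least 1 group 118 (16.0%). 22 were above 1 FPKM in treated and recovery cells but not in control cells, 18 in treated cells alone, 17 in recovery cells alone and 9 in control cells alone. The entry nearest the threshold from above was LINC00899, with a highest value of 1.01 FPKM, and from below LINC00221, with 0.993 FPKM.

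LINC levels were low next to those of other genes. The median LINC level among entries above 0 was 0.718 FPKM in treated, 1.30 FPKM in recovery and 1.36 FPKM in control cells, against 7.13, 8.56 and 9.68 FPKM over all entries in the same order of groups. The summed LINC level was 422 FPKM in treated, 474 FPKM in recovery and 475 FPKM in control cells, which is 0.0205%, 0.0157% and 0.0212% of the table. So more LINC entries were above 0 in treated cells than in control cells, while their summed level was not higher. Above 10 FPKM were 7 entries in treated, 10 in recovery and 14 in control cells. The 10 highest entries held 31.1% of the LINC sum in treated, 37.6% in recovery and 44.7% in control cells. In bulk RNA, fewer cells with a transcript and less of it per cell cannot be told apart.

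Of the marker genes listed for the cell line, CDH2, HOXB7, KRT18, NEFL and VIM were above 1 FPKM in every group, and the others were not. Of 10 genes listed for HEK 293T, 9 were measured and 7, 6 and 6 were above 1 FPKM in treated, recovery and control cells; the intermediate filament gene VIM had 181, 246 and 316 FPKM and KRT18 had 418, 214 and 231 FPKM in that order. PAX2, a kidney transcription factor of the list, was at or near 0 throughout. IRS4, an insulin receptor substrate gene of the list, had 2.13 FPKM in treated and 28.0 FPKM in recovery cells and was listed at 0 in control cells, and the neuronal filament gene INA had 3.79, 0.562 and 0.244 FPKM in treated, recovery and control cells. The blood genes CD3E and HBB, the endothelial gene CDH5, and the pluripotency genes NANOG and LIN28A were listed at 0 in all groups. The germ cell genes DAZL, at 16.6 FPKM in treated, 0.783 FPKM in recovery and 0 in control cells, and MAEL, at 19.1, 8.23 and 0.124 FPKM, moved in the direction of the LINC entries that were higher in treated cells. Over the germ cell list of 3 measured genes the sum was 36.6 FPKM in treated, 9.39 FPKM in recovery and 0.124 FPKM in control cells; its part in the LINC levels was not tested.

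LINC02381, next to the HOXC cluster of body-plan genes, had the highest LINC level in every group. It lies at chr12:54519855-54526626 (hg19, as for all entry positions here) and had 35.4 FPKM in treated, 43.5 FPKM in recovery and 49.6 FPKM in control cells. LINC00839 had 12.2 FPKM in treated, 20.5 FPKM in recovery and 16.6 FPKM in control cells. LINC00958, studied in bladder cancer, had 9.39 FPKM in treated, 14.6 FPKM in recovery and 17.9 FPKM in control cells. These 3 were all lowest in treated cells, and none was called in the authors' deposited table.

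LINC00674 and LINC00938 had close values in the 3 groups. LINC00674 had 11.3 FPKM in treated, 10.6 FPKM in recovery and 12.4 FPKM in control cells. LINC00938, which lies 1916 bp from ARID2, a subunit gene of a chromatin remodelling complex, had 10.0 FPKM in treated, 13.8 FPKM in recovery and 11.0 FPKM in control cells. LINC00308 and LINC01023 had values further apart. LINC00308 had 10.1 FPKM in treated, 5.93 FPKM in recovery and 18.7 FPKM in control cells, and LINC01023, a short entry of 437 bp, 10.7, 4.81 and 22.7 FPKM in that order. Both of these were highest in control cells and lowest in recovery cells, and the LINC01023 values amount to at least 18 fragments in treated, 4 in recovery and 29 in control cells. LINC00339, which lies near CDC42, had 3.18 FPKM in treated, 14.8 FPKM in recovery and 13.6 FPKM in control cells, and so was lowest in treated cells.

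**Figure D2:**
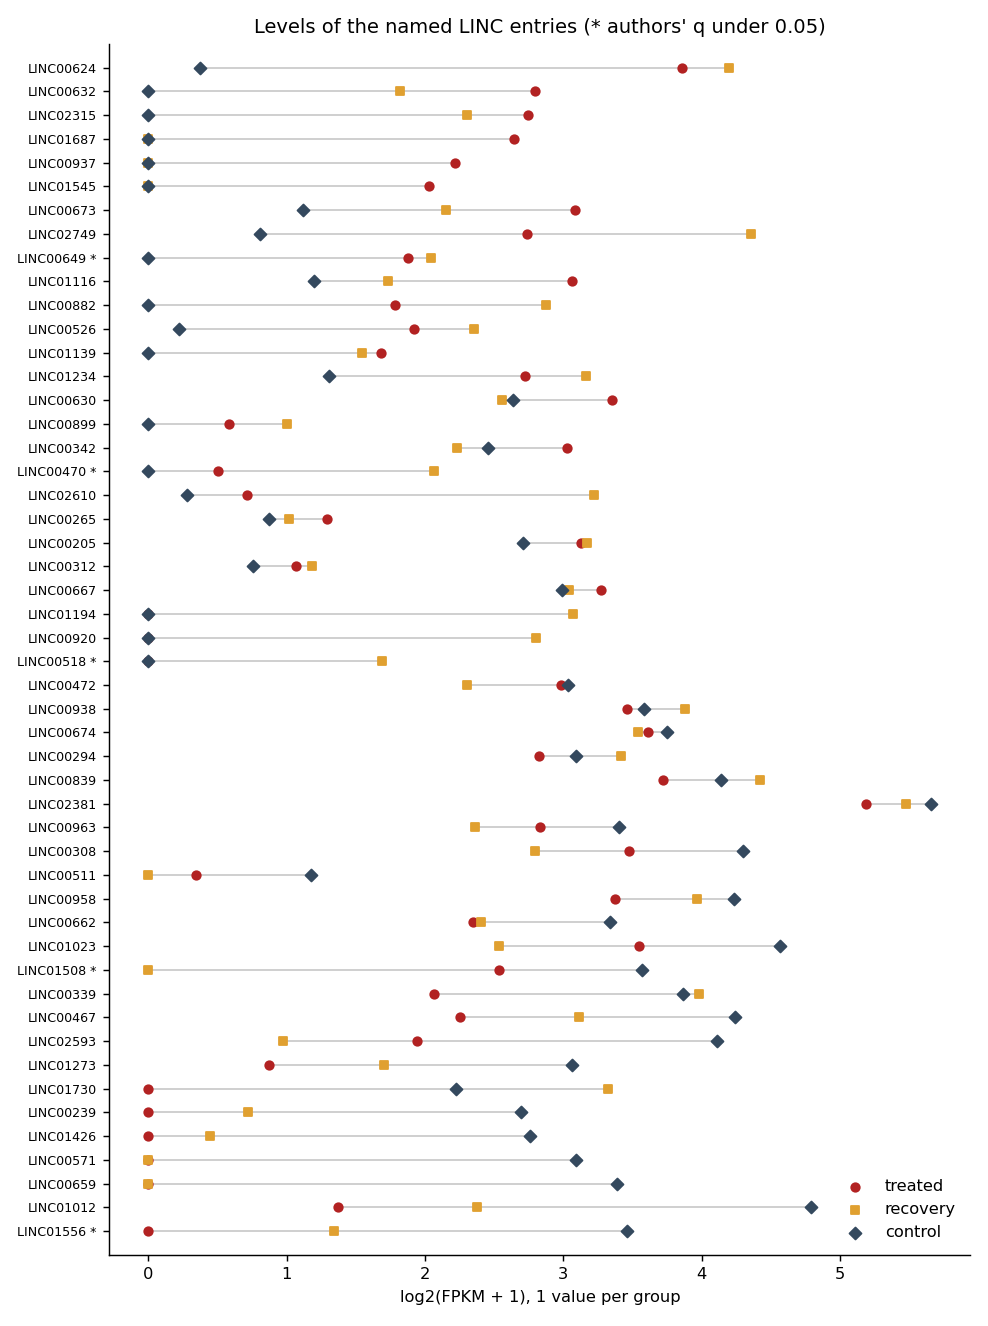
Levels of the 50 named LINC entries, as log2(FPKM + 1) on the x axis, with 1 point per group (treated, recovery, control) and a line over their range; a star marks an authors' q under 0.05. Entries are sorted by the treated minus control difference, from LINC00624 at the top (13.5, 17.4 and 0.292 FPKM) to LINC01556 at the bottom (0, 1.54 and 10.0 FPKM).

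The authors called 5 LINC entries in either comparison, all of them with one of the compared groups at 0. Against control, 1 LINC entry was called higher in treated cells (0.136% of LINC entries; 0.603% of all entries were called higher) and 1 lower (0.136%, against 0.153% of all entries). For recovery against control, 3 were called higher (0.407%, against 0.495% of all entries) and 1 lower (0.136%, against 0.247%). A q-value under 1 was given to 68 LINC entries in treated and 75 in recovery cells; among entries of any kind with a q under 1, 1.08% were called higher and 0.275% lower in treated cells, and 0.895% higher and 0.447% lower in recovery cells. With 1 to 3 LINC calls per direction, nothing about LINC entries as a class is read from these shares.

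LINC00649 was called in both comparisons, which share the control libraries. This gene, at chr21:35303516-35343487, lies 15358 bp from ATP5PO, a subunit gene of the mitochondrial ATP synthase. It had 2.66 FPKM in treated and 3.12 FPKM in recovery cells and was listed at 0 in control cells. In the authors' deposited table it rose in treated cells with q = 0.0239 and in recovery cells with q = 0.0392. The authors also gave it their methylation mark, the word Affected under a heading that names DNA methylation and an abbreviation, SOM, that is not spelled out.

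LINC00470 and LINC00518 were called in recovery cells. LINC00470, studied in glioblastoma, at chr18:1268312-1359630, had 0.415 FPKM in treated, 3.19 FPKM in recovery and 0 FPKM in control cells, and in the authors' deposited table it rose in recovery cells with q = 0.0147. LINC00518, an RNA of melanoma that is used with PRAME in tests of pigmented skin lesions, lies at chr6:10428018-10435055. It had 2.22 FPKM in recovery cells and was listed at 0 in treated and control cells, and in the authors' deposited table it rose in recovery cells with q = 0.0239. LINC00470 was thus highest after the drug had been gone for 30 days, and LINC00518 was above 0 in that library alone.

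The lower calls were LINC01556 and LINC01508. LINC01556, a 755 bp entry at chr6:28911561-28912315 and 19793 bp from TRIM27, was listed at 0 in treated cells and had 1.54 FPKM in recovery and 10.0 FPKM in control cells. In the authors' deposited table it fell in treated cells with q = 0.0392, while in recovery cells its q was 0.939. LINC01508, at chr9:93063178-93195771, had 4.80 FPKM in treated, 0 FPKM in recovery and 10.9 FPKM in control cells. In the authors' deposited table it fell in recovery cells with q = 0.0147, and in treated cells its q was 0.941.

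**Figure D3:**
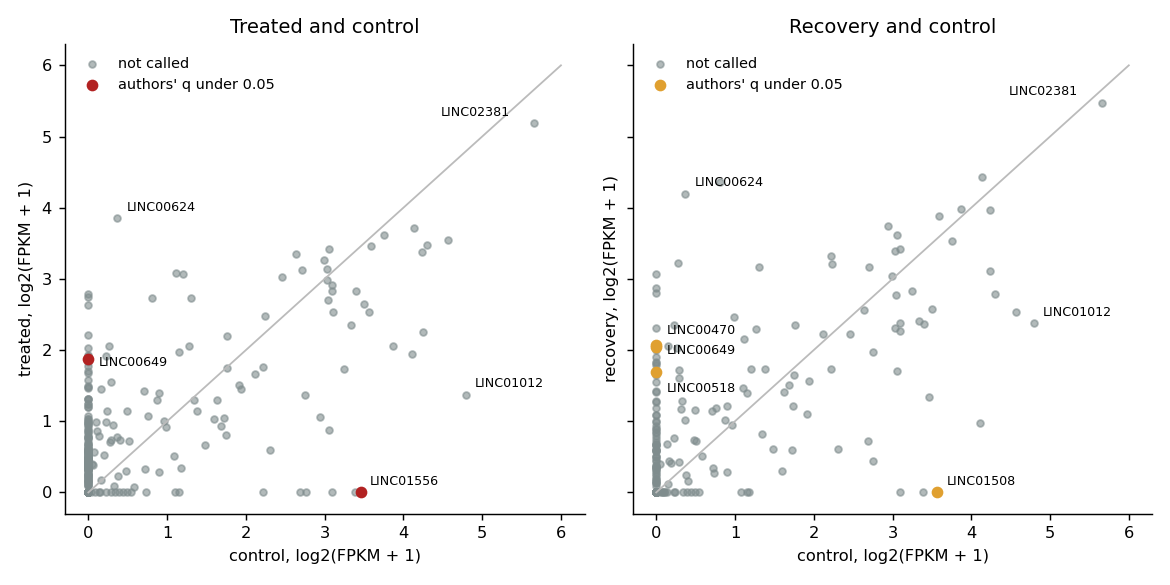
Level of each of the 737 LINC entries in treated (left) and recovery cells (right) on the y axis against control cells on the x axis, both as log2(FPKM + 1); coloured points have an authors' q under 0.05 and the line marks equal levels. The called entries sit on an axis, at 0 in one group, while LINC00624 and LINC01012, far from the line, were not called.

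The LINC entry with the largest log2 difference from control in both comparisons, LINC00624, was not called. This gene, at chr1:146853914-146989699 and 23572 bp from BCL9, a cofactor of beta-catenin, had 13.5 FPKM in treated, 17.4 FPKM in recovery and 0.292 FPKM in control cells. Those levels are 46.2 and 59.5 times the control level, and q was 0.927 in both comparisons in the authors' deposited table. They amount to at least 305 fragments in treated cells (95% exact Poisson interval 272 to 341), 194 in recovery cells (168 to 223) and 5 in control cells (1.62 to 11.7). The intervals cover counting error only, are not scaled for depth and do not overlap between control and the other groups. LINC00624 was chosen for its large difference, so the lack of overlap is no test of that difference.

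The next largest differences upward in treated cells were mostly entries at 0 in control cells. LINC00632, the primary transcript of the circular RNA CDR1as, lies at chrX:139791924-139854841. It had 5.93 FPKM in treated, 2.53 FPKM in recovery and 0 FPKM in control cells (treated q = 0.150 in the authors' deposited table). LINC02315 had 5.69 FPKM in treated, 3.94 FPKM in recovery and 0 FPKM in control cells. LINC01687, LINC00937 and LINC01545 were above 0 in treated cells alone, at 5.23, 3.65 and 3.07 FPKM. The q of LINC01687, 0.121 in the authors' deposited table, was the lowest among LINC entries not called in treated cells.

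2 entries of this set had RNA in all groups. LINC00673, at a risk locus for pancreatic cancer, had 7.50 FPKM in treated, 3.45 FPKM in recovery and 1.17 FPKM in control cells, or at least 110, 25 and 13 fragments. LINC02749 had 5.67 FPKM in treated, 19.5 FPKM in recovery and 0.749 FPKM in control cells, where the last value amounts to as little as 1 fragment.

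In recovery cells some LINC entries were well above both other groups. LINC02610, 6590 bp from HES6, a transcription factor gene of neural differentiation, had 0.638 FPKM in treated, 8.34 FPKM in recovery and 0.211 FPKM in control cells. These values amount to at least 44 fragments in treated, 284 in recovery and 11 in control cells. LINC01194 had 7.38 FPKM and LINC00920, which lies 3738 bp from CDH5, had 5.99 FPKM in recovery cells, and both were listed at 0 in the other two groups. The q of LINC00920, 0.0520 in the authors' deposited table, was the lowest among LINC entries not called. LINC00882 had 2.44 FPKM in treated, 6.35 FPKM in recovery and 0 FPKM in control cells.

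LINC00526 and its divergent neighbour LINC00667, whose promoter windows overlap, differed in how far their levels moved. LINC00526 had 2.79 FPKM in treated, 4.11 FPKM in recovery and 0.168 FPKM in control cells, or at least 22 fragments (13.8 to 33.3), 16 (9.15 to 26.0) and 1 (0.0253 to 5.57). LINC00667 had 8.64 FPKM in treated, 7.22 FPKM in recovery and 6.96 FPKM in control cells. Neither was called in the authors' deposited table, where LINC00526 had q = 0.940 in treated and 0.939 in recovery cells.

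Among the 8 largest falls in level in each comparison, LINC01012 had the highest control level. It lies in the large histone gene cluster at chr6:27661814-27678001 and had 1.59 FPKM in treated, 4.19 FPKM in recovery and 26.7 FPKM in control cells. Its control level was 16.8 times that in treated and 6.37 times that in recovery cells, and in the authors' deposited table q was 0.797 for treated and 0.868 for recovery cells. LINC00659 and LINC00571 were listed at 0 in treated and recovery cells and had 9.48 and 7.52 FPKM in control cells. LINC01426, 2930 bp from RUNX1, a transcription factor gene of blood formation, had 0 FPKM in treated, 0.363 FPKM in recovery and 5.76 FPKM in control cells.

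4 further entries were among the largest falls in level. LINC00239 had 0 FPKM in treated, 0.643 FPKM in recovery and 5.46 FPKM in control cells. LINC01273, 13912 bp from CEBPB, had 0.834 FPKM in treated, 2.25 FPKM in recovery and 7.34 FPKM in control cells, or at least 3, 4 and 20 fragments. LINC02593 had 2.85 FPKM in treated, 0.962 FPKM in recovery and 16.3 FPKM in control cells, or at least 6, 1 and 26 fragments. LINC01730 was listed at 0 in treated cells and had 8.99 FPKM in recovery and 3.67 FPKM in control cells, so its recovery and treated levels lay on opposite sides of control.

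Across the 110 LINC entries with a mean over the groups of at least 0.5 FPKM, differences of at least 1 on the log2(FPKM + 1) scale were common in both directions. This filter keeps entries through the group where they are high, so the counts do not stand for all LINC entries. In treated against control cells 29 of the 110 (26.4%) were higher by that much and 18 (16.4%) lower, against 12.7% and 7.5% of the 12712 entries of any kind that passed. In recovery against control cells 34 (30.9%) were higher and 18 (16.4%) lower, against 11.6% and 6.31%. The median difference was 0.15 in treated cells, where it turned to -0.060 with quantile scaling, and 0.31 in recovery cells (0.061 with quantile scaling), against 0.01 and 0.00 over all entries that passed. The shares differed when only entries with a control value above 0 were kept, a choice that in turn favours entries high in control cells. Of 80 such LINC entries, 9 were higher (11.3%) and 18 lower (22.5%) in treated cells, with a median difference of -0.25, and 13 were higher (16.3%) and 18 lower (22.5%) in recovery cells, with a median of -0.04. Over all entries kept this way 8.97% were higher and 7.99% lower in treated cells, and 8.25% higher and 6.72% lower in recovery cells. Entries that passed the filter with a highest value of 1 to 10 FPKM were also compared. In treated cells 30.0% of such LINC entries and 21.2% of all such entries were higher, and 11.1% and 9.43% lower. In recovery cells 35.6% and 18.9% were higher, and 12.2% and 9.94% lower.

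Many LINC values fit low whole numbers of fragments. Of the 80 LINC entries above 0 in all groups, 46 (57.5%) had FPKM ratios that fit whole fragments within 0.005 with at most 30 control fragments, against 14.3% of all entries above 0 in all groups. The smallest numbers that fit were 1 to 305 fragments in treated cells (median 10), 1 to 284 in recovery cells (median 7) and 1 to 29 in control cells (median 6.5). Of these 46 entries, 21 had a smallest fitting control number of at most 5. A true number can be a multiple of the smallest one.

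A list of 36 LINC genes that are often studied, most of them in cancer, had members at higher and at lower levels than in control cells. 30 of them have an entry, 25 were above 0 and 22 above 1 FPKM in at least 1 group, and 5 were listed at 0 throughout. In treated against control cells 13 were at a higher and 10 at a lower level. 0 were called higher and 1 lower, against 0.603% and 0.153% of all entries. In recovery against control cells 14 were at a higher and 10 at a lower level. 1 was called higher and 1 lower, against 0.495% and 0.247% of all entries. The splits by level have no share over all entries beside them. The called genes are LINC01556, LINC00518 and LINC01508. The list was chosen with earlier results of these data known and includes them, so nothing about studied genes is read from these counts.

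Several genes of the list had more RNA in treated than in control cells without a call. LINC01116 had 7.36 FPKM in treated, 2.32 FPKM in recovery and 1.30 FPKM in control cells, or at least 45, 7 and 6 fragments. LINC01234, studied in gastric cancer, had 5.61 FPKM in treated, 7.97 FPKM in recovery and 1.47 FPKM in control cells. LINC00630 had 9.21 FPKM in treated, 4.89 FPKM in recovery and 5.22 FPKM in control cells, and LINC00342 had 7.13, 3.68 and 4.49 FPKM in that order. Both were higher in treated cells alone. LINC01139 had 2.21 FPKM in treated and 1.92 FPKM in recovery cells and was listed at 0 in control cells.

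Others were lower than in control cells in the RefSeq table. LINC00467, which the MYCN protein represses in neuroblastoma, had 3.77 FPKM in treated, 7.64 FPKM in recovery and 17.9 FPKM in control cells, or at least 5, 5 and 18 fragments. LINC00662 had 4.09 FPKM in treated, 4.30 FPKM in recovery and 9.11 FPKM in control cells. LINC00963, studied in prostate cancer, had 6.14 FPKM in treated, 4.14 FPKM in recovery and 9.56 FPKM in control cells. LINC00511 was low in every group, at 0.272 FPKM in treated, 0 FPKM in recovery and 1.26 FPKM in control cells.

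For 5 other genes of the list, the highest group value was less than 2 times the lowest. The same held for LINC00342, LINC00630, LINC00667, LINC00839 and LINC00958, described above. LINC00205, 156 bp from POFUT2, had 7.73 FPKM in treated, 7.99 FPKM in recovery and 5.53 FPKM in control cells, and LINC00294 had 6.09, 9.69 and 7.51 FPKM in that order. LINC00472, studied as a tumour suppressor in breast cancer, had 6.92 FPKM in treated, 3.95 FPKM in recovery and 7.18 FPKM in control cells. LINC00265 had 1.45 FPKM in treated, 1.02 FPKM in recovery and 0.833 FPKM in control cells, and LINC00312 had 1.10, 1.27 and 0.689 FPKM in that order. None of these entries was called in the authors' deposited table.

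LINC promoters were less often CG-rich than those of other genes. A promoter window of 300 bases was counted as CpG-rich where CG occurred at no less than 0.6 times the number its C and G content gives, and G and C made up at least 50%. Windows were found for 514 of the 737 entries, and 87 of them (16.9%) were CpG-rich. The share was 46.9% of all 27305 promoters of the table, 65.1% for messenger RNA entries, 60.5% for antisense, divergent, intronic and overlapping RNA entries and 31.6% for other long non-coding RNA entries. The letters TATAAA, on either strand, stood in 15.8% of LINC windows and 12.0% of all promoters, and GGGCGG, on either strand, in 21.0% of LINC windows and 44.6% of all promoters. Among the windows shown, the minus-strand window of LINC01508 has TATAAA with its first base at position -209 from the start.

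The LINC entries that had RNA were more often those with a CpG-rich promoter. Of those above 1 FPKM in at least 1 group 36 of 82 (43.9%) were CpG-rich, of those above 0 and at most 1 FPKM 23 of 93 (24.7%), and of those at 0 in all groups 28 of 339 (8.26%). For messenger RNA entries the shares were 79.9% above 1 FPKM and 15.6% at 0 in all groups. Of LINC entries at 0 in control and above 0 in treated cells, 20 of 81 (24.7%) were CpG-rich, against 37 of 81 (45.7%) of those above 0 in control cells. For messenger RNA entries these shares were 40.2% and 80.3%. Most promoters of LINC entries above 0 in treated and at 0 in control cells were thus CG-poor, as were most LINC windows. Their CpG-rich share of 24.7% lay above the 16.9% of all LINC windows. The window of LINC00632 printed above is CG-poor, and those of LINC00899 and LINC00882 were among the exceptions.

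**Figure D4:**
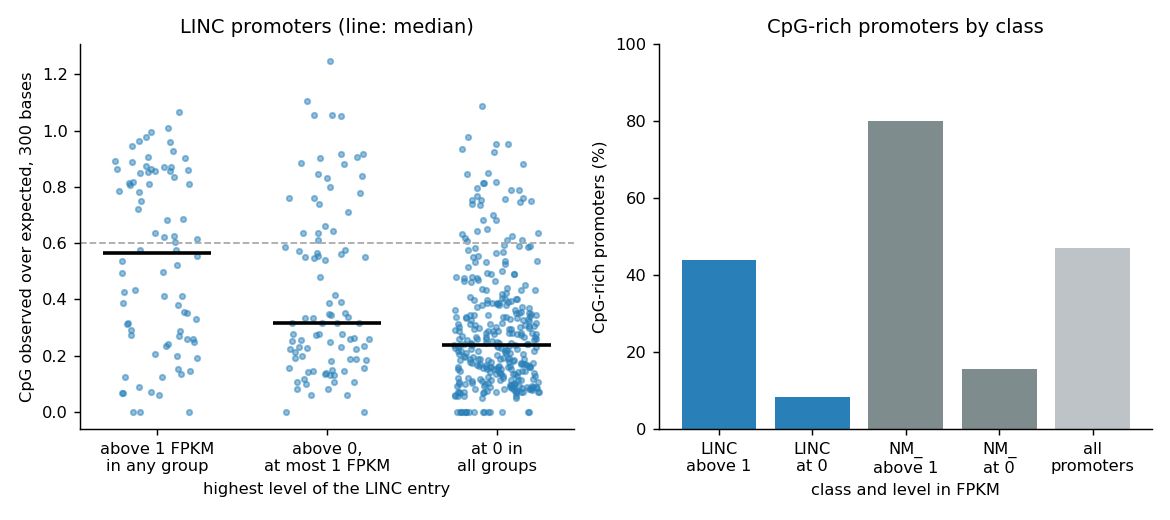
Left, CG observed over expected in the 300-base promoter window (y axis) of 514 LINC entries by their highest level in any group, with each point 1 promoter, a thick line at the median and a dashed line at 0.6. Right, share of CpG-rich promoters (y axis, %) by class and level; for LINC entries it was 43.9% above 1 FPKM and 8.26% at 0, and for all promoters 46.9%.

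The authors' methylation mark was on 173 LINC entries (23.5%), against 14.1% of all entries and 20.9% of other long non-coding RNA entries. Among marked LINC entries 44 (25.4%) were above 0 in treated, 27 (15.6%) in recovery and 13 (7.51%) in control cells. Among unmarked ones the shares were 29.6% in treated, 21.8% in recovery and 16.8% in control cells. Over all entries of the table the marked shares were also the lower ones. They were 65.0%, 55.9% and 48.4% of marked entries, against 74.8%, 69.5% and 64.9% of unmarked ones, in the same order of groups. Of marked entries with a promoter window 13 of 122 (10.7%) were CpG-rich, against 74 of 392 (18.9%) unmarked ones. LINC00649 was the marked entry among the 5 that were called, and LINC00342 and LINC00899, both named above, were also marked.

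LINC entries close to a messenger RNA gene more often had RNA. The median distance to the nearest messenger RNA entry was 63332 bp. Above 1 FPKM in at least 1 group were 8 of 14 LINC entries under 1 kb away (57.1%), 30 of 108 at 1 to 10 kb (27.8%), 59 of 326 at 10 to 100 kb (18.1%) and 21 of 288 at 100 kb or more (7.29%). The nearest pairs included LINC00235 with CAPN15 at 449 bp and LINC01547 with SLX9 at 127 bp. LINC00235 had 7.78 FPKM in treated, 9.46 FPKM in recovery and 7.20 FPKM in control cells, and LINC01547 had 5.52, 5.84 and 7.26 FPKM in that order. Over 82 pairs of a LINC entry and its nearest messenger RNA entry, both with a mean of at least 0.5 FPKM, the log2 differences from control had a Spearman correlation of 0.15 in treated and 0.06 in recovery cells. The pairs share libraries, and the correlations are given as descriptions.

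Of the 5 called LINC entries, 3 were 10 to 100 kb and 2 were 100 kb or more from the nearest messenger RNA entry; of all LINC entries only 122 of 736 (16.6%) lay within 10 kb, so nothing is read from this. No LINC entry overlaps another entry of this table, which has 1 entry per locus, but 39 of the 737 genes overlap a protein-coding gene in GRCh38.p14. Among the entries described here those are LINC00312, LINC00630, LINC00899 and LINC00963, and also LINC00235 and LINC01547, whose distances above are to messenger RNA entries of the table. For 44 entries the span in the table differs from the current gene length by over 10%, LINC00632, LINC00472, LINC00630, LINC01116 and LINC02593 among them. Entries under 2 kb were above 1 FPKM in 13 of 47 cases (27.7%), and those of 50 kb or more in 22 of 167 (13.2%). By chromosome the counts ran from 5 of 13 entries above 1 FPKM on the X (38.5%) to 0 of 29 on chromosome 4.

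A second table of the authors, of long non-coding RNA loci on another annotation, measured many of the same genes from the same libraries. It was normalized separately and its FPKM values are mostly higher, so levels are not compared across the tables: of LINC entries above 0 in both, 123 of 124 were higher in it in treated, 85 of 85 in recovery and 52 of 54 in control cells. Others, such as LINC00342 and LINC00665, were listed at 0 in all groups of the second table and above 1 FPKM in all groups of the RefSeq table. It gives no strand, and entries were matched by overlap of spans. 579 LINC entries overlapped a locus, 418 of them with at least 0.5 of the longer span shared. Above 1 FPKM in at least 1 group were 200 of the 579 in the second table and 76 in the RefSeq table. Of the 71 that were above 1 FPKM in at least 1 group of each table, 59 had a treated minus control difference of the same sign in both. In recovery minus control 56 had the same sign. Being the same libraries, this is a check of the quantification and not of the effect. Of the 289 entries with at least 0.9 overlap, 68 were above 0 in treated cells in both tables, 8 in the second table alone and 0 in the RefSeq table alone. In recovery cells these counts were 44, 9 and 2, and in control cells 31, 5 and 2. Those in the RefSeq table alone included LINC00663, at 1.44 FPKM in recovery cells, and LINC02893, at 8.47 FPKM in control cells.

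On the 418 matched LINC entries the second table held more calls than the RefSeq table. In treated against control cells 3 of the 418 were called higher and 4 lower (1.67% for both directions together). Of all loci of that table, 0.769% were called higher and 0.519% lower, each direction counted apart. In recovery against control cells 7 were called higher and 5 lower (2.87% for both directions together), against 0.859% higher and 0.749% lower of all loci. The LINC shares join the directions and those over all loci do not, so nothing about LINC entries as a class is read from them. LINC00649 was again higher in both comparisons, with 661 FPKM in treated, 1447 FPKM in recovery and 0 FPKM in control cells and q = 0.00397 for each in the authors' deposited table. LINC00899 had 53.6 FPKM in treated, 77.0 FPKM in recovery and 0 FPKM in control cells, and in the authors' deposited table it rose with q = 0.0491 in treated and 0.00397 in recovery cells. LINC00882 had 57.6 FPKM in treated, 287 FPKM in recovery and 0 FPKM in control cells, and in the authors' deposited table it rose in recovery cells with q = 0.0204.

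LINC00659, LINC00920 and LINC01426 missed the threshold in the RefSeq table and passed it here. In the authors' deposited table LINC00659 fell in both comparisons with q = 0.0246, being listed at 0 in treated and recovery cells and at 106 FPKM in control cells. LINC00920 had 755 FPKM in recovery cells and 0 in the other two groups, and rose with q = 0.0150 in the authors' deposited table. LINC01426 had 0 FPKM in treated, 7.83 FPKM in recovery and 126 FPKM in control cells, and in the authors' deposited table it fell in treated cells with q = 0.0365. LINC00518 and LINC00632 overlapped loci of which they share only 0.243 and 0.129 of the longer span. Those loci rose in the authors' deposited table, in recovery cells for LINC00518 (0, 130 and 0 FPKM in treated, recovery and control cells, q = 0.00397) and in treated cells for LINC00632 (141, 43.8 and 0 FPKM, q = 0.0290).

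**Figure D5:**
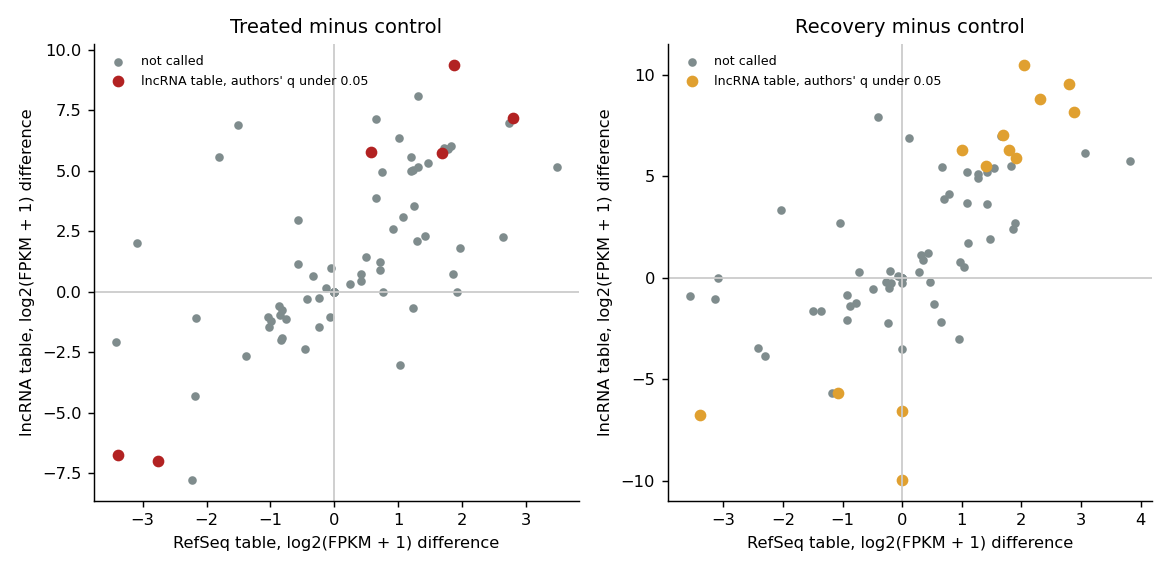
Difference from control in log2(FPKM + 1) in the authors' long non-coding RNA table (y axis) against the RefSeq table (x axis), for the 71 matched LINC entries above 1 FPKM in at least 1 group of each table, in treated (left) and recovery cells (right), 1 point per entry; coloured points have an authors' q under 0.05 in the long non-coding RNA table. Most points lie in the quadrants of equal sign (59 of 71 in treated and 56 of 71 in recovery cells), and 2 called points in recovery cells, LINC01134 and LINC01473, lie at 0 on the x axis.

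The tables also disagreed on some named entries. LINC01508, listed at 0 in recovery cells and called in the RefSeq table, had 112 FPKM in treated, 125 FPKM in recovery and 234 FPKM in control cells in the second table over almost the same span, with q = 0.755 for recovery in the authors' deposited table. LINC01687, in treated cells alone in the RefSeq table, had 530 FPKM in treated, 91.5 FPKM in recovery and 111 FPKM in control cells in the second. LINC00571, at 7.52 FPKM in control cells in the RefSeq table and 0 in the others, had 3.07 FPKM in treated and 0 FPKM in recovery and control cells in the second. LINC00339, at 13.6 FPKM in control cells in the RefSeq table, had 45.6 FPKM in treated, 116 FPKM in recovery and 0 FPKM in control cells in the second. LINC01088, LINC02059 and LINC02395, listed at 0 in all groups of the RefSeq table, were called in the second. LINC01088 had 520 FPKM in recovery cells alone, with q = 0.00397 in the authors' deposited table. LINC02059 and LINC02395 had 94.0 and 156 FPKM in control cells alone. In the authors' deposited table they fell in both comparisons, with q = 0.00397 and 0.0313. A value of 0 in either table is therefore reported as listed at 0, and no fold change is given against it.

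LINC00624, LINC01012 and LINC01730 had the same signs of difference from control in both tables. LINC00624 had 881 FPKM in treated, 1322 FPKM in recovery and 23.8 FPKM in control cells in the second table, LINC01012 had 167, 64.7 and 714 FPKM, and LINC01730 had 0, 723 and 220 FPKM in that order. None of them was called in the authors' deposited table.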

How the data were processed

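RNA of 5 HEK 293T libraries was sequenced, and groups were taken from the sample titles. Per the submitters' processing notes the tools were Cufflinks and Cuffdiff, without versions, and the genome builds hg19 and mm9. The entry coordinates are taken as hg19. For the aligner and the annotation release, the sources used here give no name. FPKM values were deposited by the authors, 1 per entry and group, and for treated and recovery cells a q-value (an adjusted p-value) and a yes or no call against control, per the file headers. A call was yes wherever q was under 0.05 and no elsewhere. With values per group only, no test could be run, and the authors' q-values are the only tests.

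The RefSeq table has 20221 rows, of which 1 with shifted columns was left out, and the long non-coding RNA table has 21627, of which 2 were left out. 0 value columns could not be matched to a group. Of 3358 NR_ entries, 189 have no symbol in the gene table. Differences were computed on log2(FPKM + 1), which understates those of low entries. Whole fragments were found from FPKM ratios within 0.005. By chance such a match is expected for 0.3% of entries. Steps were tested on simulated data. Promoters came from RefSeq (GRCh38.p14). Python 3.11.15, numpy 2.4.6, pandas 2.3.3, scipy 1.17.1 and matplotlib 3.10.9 were used.

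Named entries are those called in either comparison, the 10 with the highest mean, the 8 largest rises and 8 largest falls in each comparison, and studied genes above 1 FPKM in any group. The members and lists were chosen with earlier results of these data known. Entries named outside this rule (LINC00221, LINC00235, LINC00663, LINC00665, LINC00863, LINC01088, LINC01134, LINC01473, LINC01547, LINC02059, LINC02395 and LINC02893) were chosen after their values were seen.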

Additional observations from a re-analysis of the deposited data

How the results depend on the processing

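At q under 0.01 the authors' calls of LINC entries were 0 higher and 0 lower in each comparison, and 0 had both groups above 0. At q under 0.10 the recovery cells had 6 higher calls in place of 3. The authors' values are 1 per group, so no test was run beside their q-values and no library was left out in turn. No paired analysis was possible because the libraries of a group are already combined. The number of LINC entries past the level threshold was 86 in treated, 86 in recovery and 61 in control cells. It became 211, 150 and 108 above 0 FPKM, 27, 25 and 34 above 5 FPKM, and, in treated cells, 52 above 2 FPKM. With 147 entries included that had a LINC symbol earlier it was 135 in treated, 133 in recovery and 107 in control cells. With quantile scaling it was 74, 81 and 71. Above 5 FPKM control cells had the most entries. The median log2 difference in treated cells, 0.15, was 0.00 with no filter on low values and turned to -0.028 with a mean of at least 1 FPKM, to -0.060 with quantile scaling and to -0.25 with a control above 0. In recovery cells it was 0.31, with 0.00 under no filter, 0.13 with a mean of at least 1 FPKM and 0.061 with quantile scaling, and turned to -0.042 with a control above 0. The restriction to a control above 0 was chosen after seeing the data, and it removes the entries at 0 in control cells; the other causes were not tested. Quantile scaling moved LINC entries by a median of -0.15 in treated and -0.08 in recovery cells. Of 579 LINC entries matched to the second table, 289 had an overlap of at least 0.9. Of the 58 alternative values, 30 stayed close to the value reported. Of the 46 entries decoded into whole fragments, 21 had a smallest fitting control number of at most 5. The search went up to 30 control fragments, and true numbers can be multiples of those found.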

Other observations

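LINC genes with lower serial numbers, which were named earlier, more often had RNA in these cells. Of 314 entries numbered LINC00 and up to 3 more digits, 19.1% were above 1 FPKM in at least 1 group, against 15.4% of 267 numbered LINC01, 10.8% of 139 numbered LINC02 and 11.8% of 17 numbered LINC03. The share above 0 did not follow that order, with 33.8% for LINC00, 38.2% for LINC01, 28.8% for LINC02 and 23.5% for LINC03. LINC00863 had treated and recovery levels on opposite sides of control, at 1.08 FPKM in treated, 12.4 FPKM in recovery and 6.66 FPKM in control cells. LINC01687 and LINC00308 lie 157 bp apart on chromosome 21. LINC01687 had 5.23 FPKM in treated cells and 0 in recovery and control cells, while LINC00308 had 10.1 FPKM in treated, 5.93 FPKM in recovery and 18.7 FPKM in control cells.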
